A study of Mus musculus with 2 samples.

Results

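The Mir30 family was described in mouse hippocampus as its 6 annotated hairpin genes, Mir30a, Mir30b, Mir30c-1, Mir30c-2, Mir30d and Mir30e, chosen by name out of the 2202 microRNA genes listed. All 6 matched 1 identifier each in the GENCODE M21 annotation. The data were read counts per microRNA gene from 2 libraries of RNA under 30 nt, biological replicates 1 and 2 of a single group. That group was wild-type, female and described as control, with no treatment given. Its strain is B6NCrl, its age was not collected, and its tissue is given as layer of hippocampus with no layer named. Sense-strand counts on microRNA genes came to 6713867 for replicate 1 and 5901107 for replicate 2. The libraries have separate biosample records and share 1 donor record, so their spread may be technical and no p-value measures a spread between animals.

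A microRNA gene encodes a hairpin that is trimmed to a short mature strand from its 5′ arm (5p) or its 3′ arm (3p). The mature strand guides the silencing complex to messenger RNAs that pair with its seed, bases 2 to 8. The Mir30 genes share the seed of their 5p strands and are widely expressed in differentiated tissues, among them kidney, heart and brain. In human cells miR-30a has been reported to repress BECN1, an autophagy gene, and BDNF, a neuronal growth factor.

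The mature strands are shown because they decide what each gene can bind and whether its reads can be told from those of its relatives. RefSeq (GRCm38.p6) held sequences of 4 members, and Mir30b and Mir30d are described by their counts. Capitals mark the seed. The 5p strands of the members, followed by that of Mir384, the other gene in the table with this seed, were:
miR-30a-5p: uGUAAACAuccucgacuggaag
miR-30e-5p: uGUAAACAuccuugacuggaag
miR-30c-5p: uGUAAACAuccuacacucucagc
miR-384-5p: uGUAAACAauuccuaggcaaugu
Among 1738 mature entries from 1058 genes, 5 genes carried GUAAACA as a seed. These were the 4 members and Mir384.

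Outside the seed these 4 members fell into 2 kinds. Counting positions from 1 at the 5′ end, the 5p strand of Mir30e differed from that of Mir30a by 1 base, C13U. The miR-30c-5p strand matched miR-30a-5p at 17 of 22 aligned positions, and was identical to it over the first 12 bases. The 3p strands split in the same way:
miR-30a-3p: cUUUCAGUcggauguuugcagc
miR-30e-3p: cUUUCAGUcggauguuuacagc
miR-30c-1-3p: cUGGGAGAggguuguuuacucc
miR-30c-2-3p: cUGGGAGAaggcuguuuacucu
The 3p strands of Mir30a and Mir30e differed by G18A, and no other gene in the table had their seed. The 3p strands of Mir30c-1 and Mir30c-2 differed by G9A, U12C and C22U, and their seed recurred in 1 other gene, Mir6958, which had 22 counts in replicate 1 and 21 in replicate 2.

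The 2 Mir30c hairpins are shown whole because they bear on how their counts are read. Sequences and positions are those of RefSeq on GRCm38.p6, and capitals mark the 28 bases that the hairpins share, which contain all of miR-30c-5p:
Mir30c-1, chr4:120769534-120769622, minus strand: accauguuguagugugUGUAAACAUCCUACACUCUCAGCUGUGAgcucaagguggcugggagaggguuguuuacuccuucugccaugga
Mir30c-2, chr1:23291701-23291784, plus strand: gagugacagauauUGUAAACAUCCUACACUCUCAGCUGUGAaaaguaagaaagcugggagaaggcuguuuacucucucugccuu
A read inside the shared stretch maps to both places and, in these files, is given to no gene. Over the whole genome, multiply mapped reads were 43.9% of all reads for replicate 1 and 45.9% for replicate 2. The counts of Mir30c-1 and Mir30c-2 therefore leave out an unknown number of miR-30c-5p reads, and the files do not divide a gene's counts by arm. Mir30a and Mir30e shared at most 18 bases with each other, fewer than the 22 of their mature strands.

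The family's genes lie in pairs at 3 loci of the mm10 assembly. Mir30d (chromosome 15, 68341208 to 68341289, minus strand) lay in an exon of the long noncoding RNA Gm20732, and 9 of its bases also fell in Gm37296. Mir30b (chromosome 15, 68337415 to 68337510) followed on the same strand after a gap of 3697 bp, with 16 of its 96 bases in an exon of the processed transcript Gm26621. Mir30a (chromosome 1, 23272269 to 23272339, plus strand) overlapped no gene other than itself. Mir30c-2, downstream of Mir30a after a gap of 19361 bp, lay within an exon of the long noncoding RNA Gm27028. Mir30e (chromosome 4, 120772606 to 120772697, minus strand) and Mir30c-1, downstream of it after a gap of 2983 bp, both lay in introns of Nfyc, which encodes a subunit of the transcription factor NF-Y.

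Mir30d was the most abundant member in both libraries. It had 7085 CPM (counts per 1000000 sense-strand counts over all microRNA genes) in replicate 1 and 7303 CPM in replicate 2. Its mean of 7194 ± 154 CPM (SD, n = 2) took rank 27 of the 2202 genes. By itself it supplied 60.0% of the family's counts in replicate 1 and 62.0% in replicate 2. In bulk tissue, fewer cells of a type and less RNA per cell cannot be told apart. Levels were not divided by gene length, since the mature strands shown differ by at most 1 base in length, 22 against 23.

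Mir30a and Mir30e, whose strands differ by 1 base per arm, came next. Mir30a had 2866 CPM in replicate 1 and 2794 CPM in replicate 2, a mean of 2830.3 ± 51.0 CPM (SD, n = 2), at rank 52. Mir30e had 1148 CPM in replicate 1 and 1112 CPM in replicate 2, a mean of 1129.8 ± 25.6 CPM, at rank 81. The exact 95% Clopper-Pearson intervals, which cover counting error only, ran from 2826 to 2907 CPM for Mir30a and from 1122 to 1174 CPM for Mir30e in replicate 1. In replicate 2 they ran from 2752 to 2837 CPM and from 1085 to 1139 CPM, so that for each gene the libraries' intervals overlapped.

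The other members were lower by a wide margin. Mir30c-2 had 368 CPM in replicate 1 and 309 CPM in replicate 2, a mean of 339 ± 41.7 CPM (SD, n = 2), at rank 131. Mir30c-1 had 229 CPM in replicate 1 and 152 CPM in replicate 2, a mean of 190.4 ± 54.7 CPM, at rank 165. These are the genes that share all of miR-30c-5p, and reads inside the shared stretch are in neither count. Mir30b, at 120.2 CPM in replicate 1 and 105 CPM in replicate 2, was the lowest, with a mean of 112 ± 10.9 CPM at rank 185. It rested on 807 counts in replicate 1 and 618 in replicate 2.

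The order Mir30d, Mir30a, Mir30e, Mir30c-2, Mir30c-1, Mir30b was the same in the 2 libraries, and for none of the 5 neighbouring pairs did the ranges over the libraries overlap. Between neighbours the fold of the means was 2.54 for Mir30d over Mir30a, 2.51 for Mir30a over Mir30e and 3.34 for Mir30e over Mir30c-2. It was 1.78 for Mir30c-2 over Mir30c-1 and 1.69 for Mir30c-1 over Mir30b. With 2 libraries no test of the order was made. It is an order of counts, with miR-30c-5p reads of the shared stretch left out of both Mir30c genes. Shared bases of Mir30b and Mir30d were not checked.

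**Figure D1:**
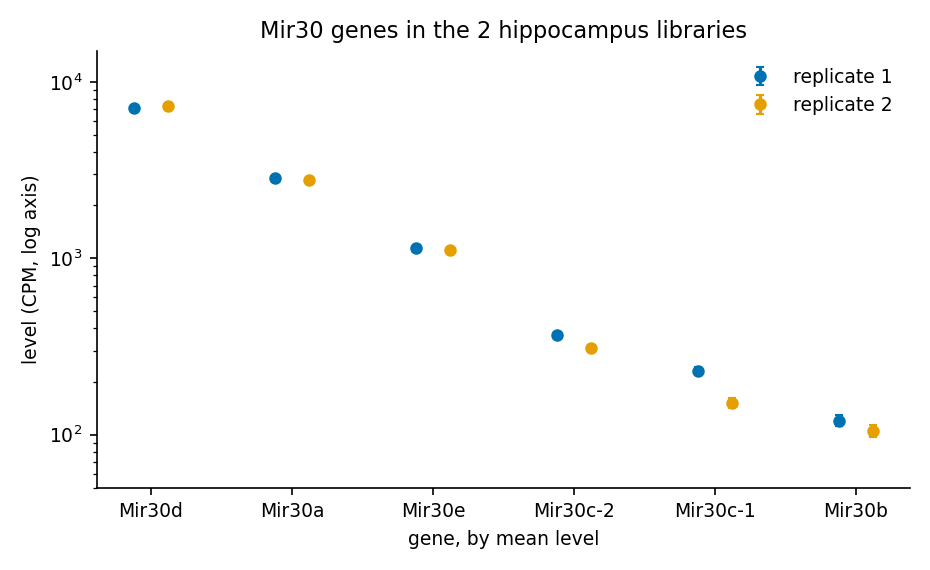
Level of each Mir30 gene (CPM, log axis) in replicate 1 (left point of each pair) and replicate 2 (right point), genes ordered by mean level, with exact 95% counting intervals. Levels run from 7194 CPM on average for Mir30d to 112 CPM for Mir30b, and the 2 libraries keep the order.

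Most other genes next to a member in the ranking of all genes by mean CPM had a wider spread of CPM between the libraries than the member did. Mir30d stood between Mir151 (replicate 1 at 9307 CPM, replicate 2 at 7538 CPM) and Mir541 (7416 and 5772 CPM). Mir30a stood between Mir138-1, a neuronal microRNA (3716 and 2024 CPM), and Mir129-2 (2765 and 2894 CPM). Around Mir30e were Mirlet7c-2 and Mir27b, around Mir30c-2 were Mir543 and Mir350, around Mir30c-1 were Mir218-2 and Mir1298, and around Mir30b were Mir101b and Mir539. Except for Mir151, whose lower value of 7538 CPM was above both values of Mir30d, the ranges of all these genes overlapped that of the member beside them, so their ranks do not differ beyond the spread. With 2 libraries, likeness of pattern could be measured only as this closeness of mean level. Under TMM factors from edgeR, which centre the bulk of genes, the log2 ratio of replicate 1 over replicate 2 was -0.24 for Mir30d. It was smaller in size for both its neighbours, at 0.11 for Mir151 and 0.16 for Mir541. It was also smaller for Mir27b, at 0.03 against -0.15 for Mir30e. The other neighbours had larger ratios by size than their members.

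At each locus 1 gene supplied most of the counts, and it was the 5′ gene of the pair in the direction of transcription. Mir30d exceeded Mir30b by 58.9-fold in replicate 1 (exact 95% interval 55.0 to 63.3) and by 69.7-fold in replicate 2 (64.4 to 75.6). Mir30a exceeded Mir30c-2 by 7.79-fold in replicate 1 (7.47 to 8.12) and by 9.04-fold in replicate 2 (8.61 to 9.49). Mir30e exceeded Mir30c-1 by 5.01-fold in replicate 1 (4.74 to 5.30) and by 7.33-fold in replicate 2 (6.83 to 7.87). These folds compare counts within a library and need no scaling. For the pairs with a Mir30c gene they are also set by the miR-30c-5p reads left out, and that part was not tested.

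Summed by locus, the chromosome 15 pair had 7205 CPM in replicate 1 and 7407 CPM in replicate 2, or 61.9% ± 1.37 of the family (SD, n = 2). The chromosome 1 pair had 3234 and 3103 CPM, 26.9% ± 0.718 of the family. The chromosome 4 pair inside Nfyc had 1377 and 1263 CPM, 11.2% ± 0.653. The ranges of the 3 loci did not overlap. The sums of chromosomes 1 and 4 leave out miR-30c-5p reads inside the shared stretch, to an unknown extent. The sums and shares of the loci therefore describe the reads counted and not all output of each locus.

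**Figure D2:**
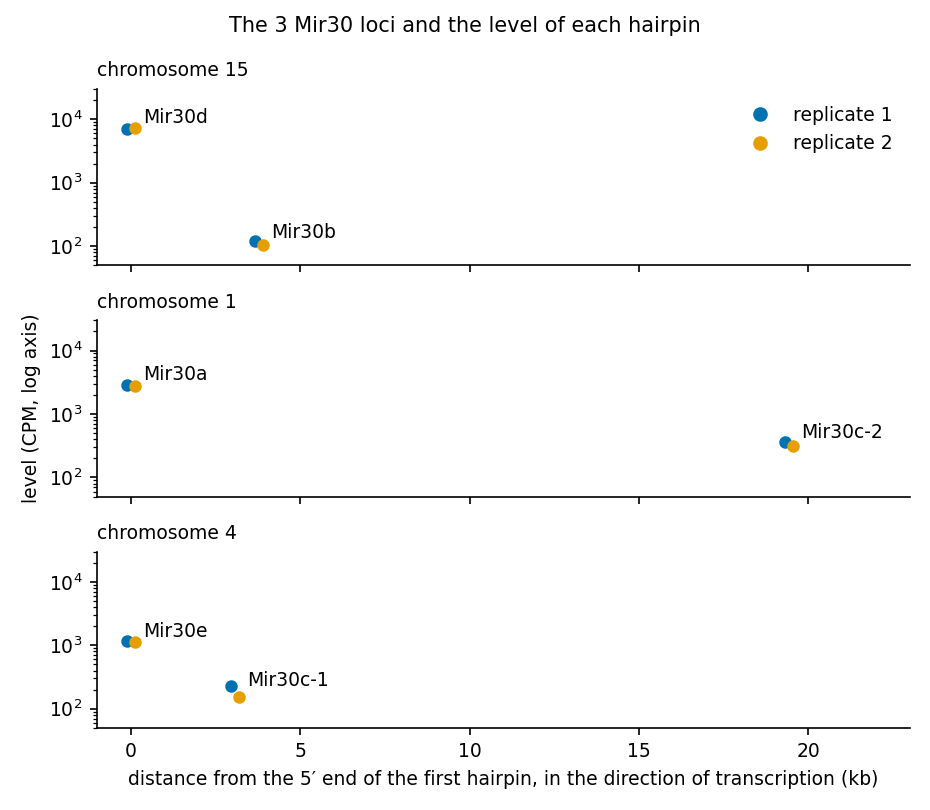
The 3 loci to scale, with the distance from the 5′ end of the first hairpin in kb on the horizontal axis and the level (CPM, log axis) on the vertical axis, for replicate 1 (left point) and replicate 2 (right point). In each panel the first hairpin is the higher one, and the second stands 58.9 to 69.7 times lower at chromosome 15, 7.79 to 9.04 times lower at chromosome 1 and 5.01 to 7.33 times lower at chromosome 4.

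Reads of Mir30e could be counted only by strand. Another annotated gene, Mir30f, occupies the same 92 positions on the plus strand, and its listed strand is shown because it lies opposite the 3p arm of Mir30e and begins with the same letters as the family's seed, 1 base out of register:
miR-30f: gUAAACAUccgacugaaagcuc
Mir30e had 7707 sense counts in replicate 1 and 6560 in replicate 2, and 0 in both libraries when strand was ignored, because those reads were then ambiguous between the 2 genes. They made up 1.76% and 1.78% of all reads called ambiguous in that column. Mir30f had 0 counts on its own strand in both libraries, which allows up to 0.447 CPM in replicate 1 and 0.508 CPM in replicate 2. The 6 members had 0 antisense counts in both libraries.

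The 6 genes together had 11816 CPM in replicate 1 and 11774 CPM in replicate 2, which was 1.18% of the counts in each. Their mean was 11795 ± 29.9 CPM (SD, n = 2), a coefficient of variation of 0.253%. For the sums of 3 other families, described further on, it was 17.6% for Mir29, 44.3% for Mir26 and 5.54% for Mir181. Members that differed in opposite directions offset each other in such sums. Taken singly, the coefficient of variation was 2.14% for Mir30d, 1.80% for Mir30a, 2.27% for Mir30e, 12.3% for Mir30c-2, 28.8% for Mir30c-1 and 9.73% for Mir30b, against a median of 20.2% over the 466 single genes whose counts averaged at least 10. All these values are of shares of the library totals. With TMM factors from edgeR, which centre the bulk of genes, the family's log2 ratio of replicate 1 over replicate 2 was -0.19, and under totals it was 0.01. Of the 466 genes, 4.51% had a smaller coefficient of variation than Mir30d, 4.08% than Mir30a and 5.36% than Mir30e. By size of the log2 ratio under TMM, the shares were 34.8%, 24.7% and 24.0%. For the other members the share was lower by the TMM ratio than by the coefficient of variation.

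Within the family the balance of counts differed between the libraries. Each locus's minor gene took a larger share of its locus's counts in replicate 1. Mir30b made up 1.67% of its locus in replicate 1 (exact 95% interval 1.56 to 1.79) and 1.41% in replicate 2 (1.31 to 1.53). Mir30c-2 made up 11.4% in replicate 1 (11.0 to 11.8) and 9.96% in replicate 2 (9.53 to 10.4). The widest gap was that of Mir30c-1, with 16.6% in replicate 1 (15.9 to 17.4) and 12.0% in replicate 2 (11.3 to 12.8). Counts of both Mir30c genes leave out miR-30c-5p reads inside their shared stretch.

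As a ratio of ratios, minor over leading gene and replicate 1 over replicate 2, the values were 1.18 for chromosome 15 (95% counting interval 1.06 to 1.31), 1.16 for chromosome 1 (1.09 to 1.24) and 1.46 for chromosome 4 (1.34 to 1.60). All 3 intervals lay above 1. They cover counting error only, and the difference has no replicate check. The values for chromosome 1 and chromosome 4 also leave out miR-30c-5p reads of the shared stretch. Whether that loss differed between the libraries was not tested.

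**Figure D3:**
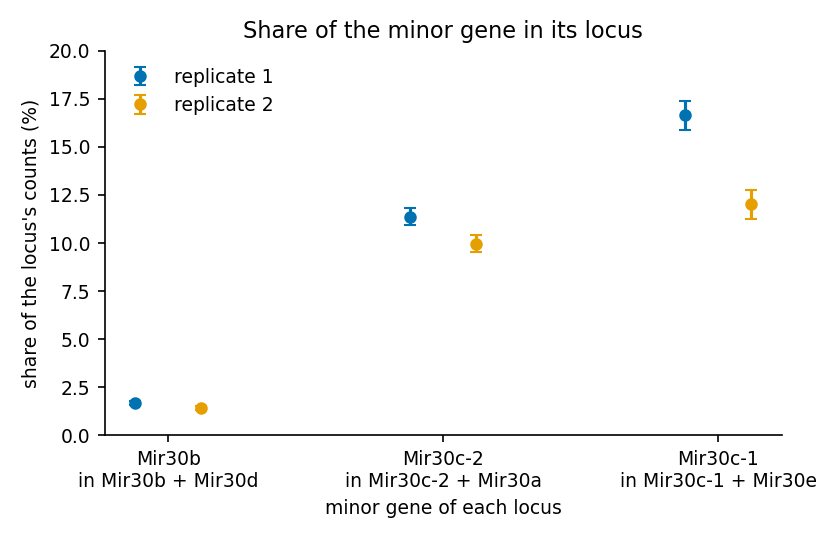
Share of the minor gene in the counts of its locus (%), for replicate 1 (left point of each pair) and replicate 2 (right point), with exact 95% counting intervals. In each of the 3 loci the share is higher in replicate 1, most widely for Mir30c-1, at 16.6% against 12.0%. Counts of Mir30c-1 and Mir30c-2 leave out miR-30c-5p reads inside their shared stretch.

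For each gene the libraries were also compared by a 2-sided Fisher exact test of its share of the counts. P-values were adjusted over these 466 genes after Benjamini and Hochberg. They refer to shares of the library totals, so each goes with the ratio under totals and not with that under TMM. A gene was called only if its adjusted p was under 0.05 and its log2 ratio had 1 sign under TMM, library totals and DESeq2 size factors. Across these genes the median ratio was -0.02 with TMM factors and 0.18 with library totals, so all ratios stand higher with totals. All 6 members had enough counts to be tested, and 5 passed the exact test, against 57.5% of all tested genes. By the full rule 4 were called, against 53.0% of all tested genes, 3 of them higher in replicate 1 (background 35.0%) and 1 lower (background 18%). Another 1 passed with a sign that depended on the scaling (background 4.51%). Most tested genes passed too, and nothing particular to the family is read from these counts.

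Mir30c-1 was higher in replicate 1 and had the largest ratio of the family. Its 1538 counts in replicate 1 and 895 in replicate 2 gave a log2 ratio of 0.40 under TMM (counting SE 0.06). Under totals it was 0.59 (adjusted p = 1.11e-22 by the exact test). The exact test covers counting error only. Ratios of both Mir30c genes leave out miR-30c-5p reads inside their shared stretch. Of the tested genes, 53.2% had a smaller ratio by size under TMM, so the leading change of the family was of ordinary size among all genes. Mir30d was lower in replicate 1 relative to depth, with 47565 counts in the deeper replicate 1 and 43093 in replicate 2. Its log2 ratio was -0.24 under TMM (counting SE 0.01) and -0.04 under totals (adjusted p = 1.2e-05 by the exact test). Mir30c-1 and Mir30d were the members whose sign was the same in all 7 settings run.

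The remaining ratios were near 0 or turned with the scaling. Mir30c-2 was called higher in replicate 1 at 0.05 under TMM and 0.25 under totals (adjusted p = 4.23e-08 by the exact test), and Mir30b at 0.00 under TMM and 0.20 under totals (adjusted p = 0.0188). At a minimum mean of 50 counts, which changes the TMM factors, both ratios were below 0 and neither gene was called, at -0.01 for Mir30c-2 and -0.07 for Mir30b. Mir30a passed the exact test (adjusted p = 0.0298) but had -0.16 under TMM and 0.04 under totals, so it was not called. Mir30e did not pass (adjusted p = 0.0918 by the exact test), with -0.15 under TMM and 0.05 under totals. The median ratio of the 6 members was -0.08 under TMM and 0.12 under totals, against -0.02 and 0.18 over all tested genes.

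**Figure D4:**
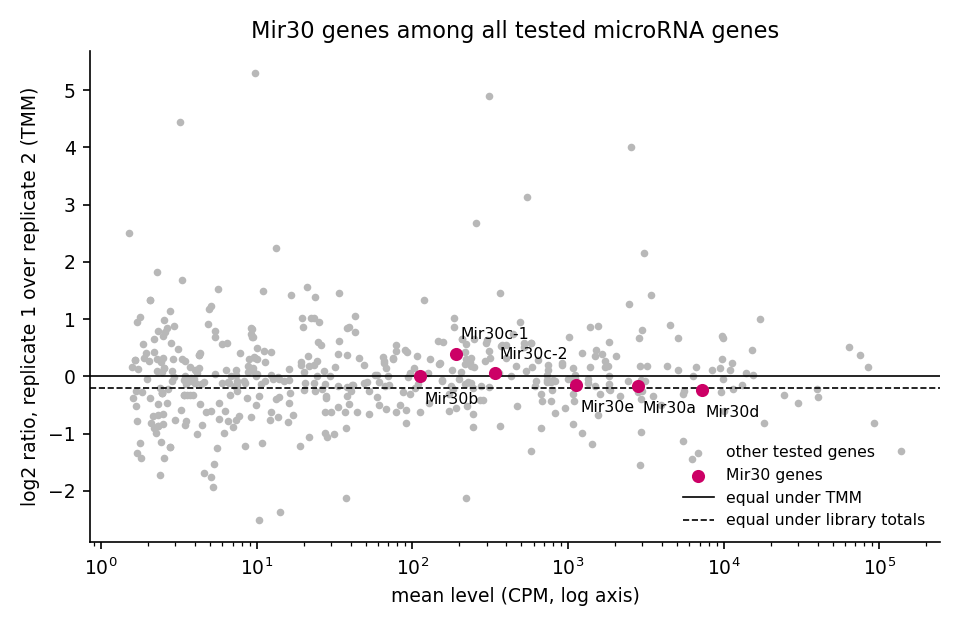
Log2 ratio of replicate 1 over replicate 2 under TMM against mean level (CPM, log axis) for the 466 tested genes, with the 6 Mir30 genes as large points, a solid line where the libraries are equal under TMM and a dashed line where they are equal under library totals. The Mir30 genes lie between -0.24 for Mir30d and 0.40 for Mir30c-1.

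Markers of several cell types also differed between the libraries. The oligodendrocyte list, Mir219a-2 and Mir338, summed to 7067 CPM in replicate 1 and 3183 CPM in replicate 2. Mir126a of endothelium stood at 6191 CPM in replicate 1 and 2897 CPM in replicate 2. The 9 neuron genes summed to 28558 CPM in replicate 1 and 29609.7 CPM in replicate 2. Within that sum Mir128-1 had 3723 CPM in replicate 1 and 8772 CPM in replicate 2, while the most abundant, Mir132, had 15073 CPM in replicate 1 and 12539.5 CPM in replicate 2. The defining Mir124a genes had at most 8 counts each and Mir124a-2 had 0 in both. The 3 Mir9 genes of brain summed to 61.2 CPM in replicate 1 and 121 CPM in replicate 2. Mir124a and Mir9 are sets of gene copies, and reads that map to several genes are given to none. Shared bases of these copies were not compared, so their low counts are not read as low levels. The 4 microglia and leukocyte genes summed to 1971 CPM in replicate 1 and 2201 CPM in replicate 2, with Mir150 lower in replicate 1 (1303 and 1815 CPM) and Mir146 (658 and 380.4 CPM), Mir142 and Mir223 higher. The 6 epithelial genes summed to 202 CPM in replicate 1 and 447 CPM in replicate 2, of which Mir200b had 92.3 and 349.8 CPM, while Mir200c, Mir192 and Mir194-2 were higher in replicate 1. Mir204 of choroid plexus stood at 1532 CPM in replicate 1 and 1653 CPM in replicate 2. Few counts came from the lists of erythrocyte (61.1 and 26.3 CPM) and liver (Mir122, 55.1 and 42.0 CPM). The striated muscle list had 32.6 and 19.3 CPM, with 4 of 5 genes at 0 in both libraries. Those 4 are copies of Mir1a and Mir133a, to which the same limit applies, so their 0 counts are not read as absence. The libraries also follow different adapter trimming documents, so trimming and biosample cannot be told apart. The part of these differences in the ratios of the Mir30 genes was not tested.

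Mir384, which carries the Mir30 seed on the X chromosome (105344282 to 105344369), had a lower mean level than every member. In rodents miR-384-5p has been reported as needed for the maintenance of long-term potentiation in hippocampus. It had 109.8 CPM in replicate 1 and 69.8 CPM in replicate 2, a mean of 89.8 ± 28.3 CPM (SD, n = 2). Its range overlapped that of Mir30b. Its 5p strand matched miR-30a-5p at 12 of 22 aligned positions, of which the first 8 were identical in both. With 737 counts in replicate 1 and 412 in replicate 2 it was called higher in replicate 1, at a log2 ratio of 0.45 under TMM (counting SE 0.09). Under totals the ratio was 0.65 (adjusted p = 2.61e-13 by the exact test).

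Set beside 3 other families with genes on several chromosomes, Mir30 had the highest summed level among them. The families were chosen with earlier results of these data known. Single genes outside them stood higher, such as Mirlet7b, with 72727 CPM in replicate 1 and 111790 CPM in replicate 2. The Mir29 family, known for repressing collagen and DNA methyltransferase genes, had 11149.5 CPM in replicate 1 and 8686 CPM in replicate 2. The Mir26 family, in introns of Ctdsp phosphatase genes, had 3789 CPM in replicate 1 and 7246 CPM in replicate 2. The Mir181 family had 3602 CPM in replicate 1 and 3330.2 CPM in replicate 2. The ranges of Mir30 and Mir29 did not overlap. Log2 ratios of the sums under totals were 0.01 for Mir30, 0.36 for Mir29, -0.94 for Mir26 and 0.11 for Mir181. Under TMM they were -0.19 for Mir30, 0.16 for Mir29, -1.13 for Mir26 and -0.09 for Mir181, so that the ratio nearest 0 was that of Mir30 under totals and that of Mir181 under TMM. Reads that mapped to several genes of a family are in none of these sums, and no test between families was made.

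Counts were spread over more Mir30 genes than over Mir29 or Mir26 genes. The leading gene held 61.0% of the mean sum in Mir30, against 95.6% for Mir29a in Mir29, 99.3% for Mir26b in Mir26 and 39.8% for Mir181d in Mir181. In all 4 families each gene kept its rank between the libraries. Unequal neighbours were found in the other families too. Mir29a exceeded Mir29b-1 by 159-fold in mean level, Mir181b-2 exceeded Mir181a-2 by 63.5-fold, Mir181a-1 exceeded Mir181b-1 by 17.4-fold, Mir29c exceeded Mir29b-2 by 1.91-fold and Mir181d exceeded Mir181c by 1.90-fold. The higher gene was the 5′ one in 3 of 3 Mir30 pairs and in 1 of these 5 pairs, a difference that was not tested. Shared sequence was not compared in these 3 other families, and reads that mapped to several genes are missing from their folds and leading shares to an unknown extent.

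**Figure D5:**
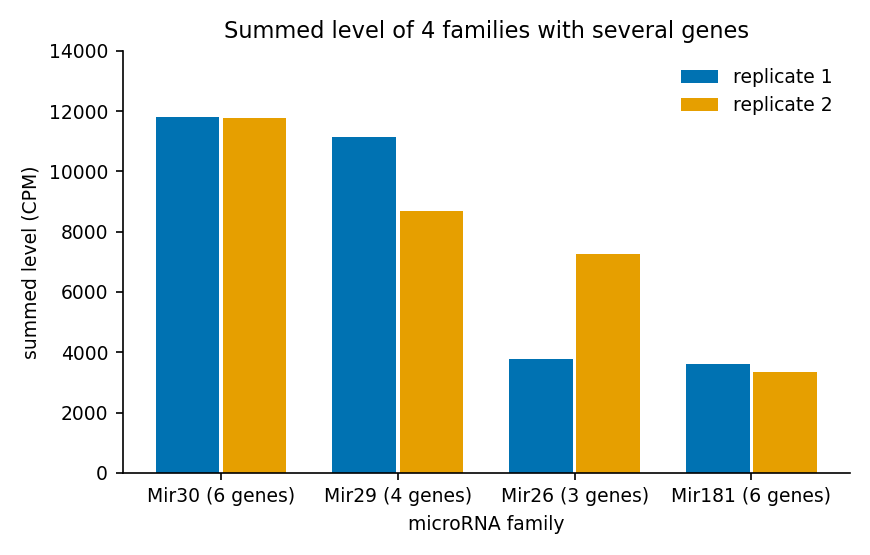
Summed level (CPM) of the Mir30, Mir29, Mir26 and Mir181 families in replicate 1 (left bar) and replicate 2 (right bar), 1 library per bar. Mir30 stands at 11816 and 11774 CPM, above the other families shown in each library, and Mir26 differs most, at 3789 and 7246 CPM.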

How the data were processed

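Counts were deposited by the authors as unnormalized whole numbers for each microRNA gene of GENCODE M21 on mm10, per the notes deposited with each library. Which aligner and counter made them is not given in the sources used here. Libraries held 15794475 reads in replicate 1 and 14300757 in replicate 2, with 6713867 and 5901107 sense counts on microRNA genes, per the deposited columns. The columns have no heading and were read from their values as unstranded, sense and antisense counts. The 4 read classes stayed out of library sizes.

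From there, CPM used sense counts over all 2202 genes. The library comparison used the 466 genes whose counts averaged at least 10, with 0.5 counts added for ratios. TMM (trimmed mean of M values) came from edgeR 4.0.16, size factors from DESeq2 1.42.0 and the exact test from scipy 1.17.1. The comparison was tested on simulated counts with counting error only. That simulation does not cover the wider spread between these libraries, a common coefficient of variation of 34.1% by edgeR. A quasi-likelihood contrast needs 2 groups. Intervals are exact Clopper-Pearson ones at 95%, except for ratios of ratios, which use a normal approximation of the log odds. A 0 was read as allowing up to 3 counts. Since no molecular identifiers are given, both describe counting error alone.

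Named genes were the members, the gene opposite Mir30e, genes with the Mir30a 5p seed, genes directly above and below a member in rank, the families Mir29, Mir26 and Mir181, and tissue markers. Members, lists and tests were chosen with earlier results of these data known. Mir6958 was added for its seed after its values were seen. Alternatives tried were other scalings, filters, strand use, added counts, library totals, shared sequence and leaving out a library.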

Additional observations from a re-analysis of the deposited data

How the results depend on the processing

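No paired analysis was possible because the 2 libraries form a single group, and leaving out a library gave levels but no ratio between libraries. Each value without a library is that of the library kept, so it is no separate check. Without a library the values ranged from 11774 to 11816 CPM for the family, from 7205 to 7407 CPM for the chromosome 15 locus, from 3103 to 3234 CPM for the chromosome 1 locus and from 1263 to 1377 CPM for the chromosome 4 locus, and all 6 members kept their rank. With counts that ignored strand, which drop Mir30e, the family had 11392 CPM, the loci had 7803, 3385 and 203 CPM, and 2 of 6 members stayed at their rank. Without the most abundant gene in the total, the family had 13726 CPM, since the total is smaller. Leaving out members that share 18 or more bases removed Mir30a, Mir30e and both Mir30c genes and left 7306 CPM, with shared bases of Mir30b and Mir30d not checked. The within-locus log2 ratios ran without a library from 5.88 to 6.12, from 2.96 to 3.18 and from 2.33 to 2.87. In place of 4 members, 2 were called at a minimum mean of 50 counts and 3 with 2 counts added, which lost the call of Mir30b. Under totals or DESeq2 size factors alone it was 5, the members that passed the exact test, whose p-values do not use the scaling. Mir30a, then included, had opposite signs under the 2, at 0.0367 under totals and -0.14 under DESeq2 size factors. Log2 ratios turned sign for Mir30a (0.0367) and Mir30e (0.0463) under totals, for Mir30b (-0.0661) and Mir30c-2 (-0.0129) at the minimum of 50 counts, and for Mir30b (-0.00079) with 2 counts added. Mir30b, with the fewest counts of the members, had a counting SE of 0.08.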

Other observations

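The other families moved between the libraries in ways unlike each other. All 3 Mir26 genes were called lower in replicate 1, led by Mir26b at 3766 CPM in replicate 1 and 7195 CPM in replicate 2, a log2 ratio of -1.13 under TMM. In the Mir29 family 3 genes were called higher and 0 lower in replicate 1, and Mir29c had 320.1 CPM in replicate 1 and 177 CPM in replicate 2. In the Mir181 family 2 genes were called higher and 3 lower in replicate 1. Mir181b-2 had 1003 CPM in replicate 1 and 1175 CPM in replicate 2, while Mir181d had 1552 CPM and 1208 CPM. Over all tested genes 35.0% were called higher in replicate 1 and 18% lower. The Mir181 genes called lower in replicate 1 were Mir181a-2, Mir181b-1 and Mir181b-2, those called higher were Mir181a-1 and Mir181d, and Mir181c was not called.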
